A study of Mus musculus with 6 samples.

Results

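The genes described here code for parts of the striated muscle sarcomere, or belong to the same protein families, as they read in mouse pre-pro-B cells given Ebf1. They were chosen by the gene names printed on the array: probes named for a myosin heavy or light chain, a myosin light chain kinase, a troponin, a myosin-binding protein, an alpha-actinin, a tropomyosin, a myozenin, a Xin-repeat protein, a calsequestrin or a ryanodine receptor. Acta1, Actc1, Ckm, Trim63, Des, Ldb3, Ttn, Myog, Myod1 and Myf6 were added by symbol. Myl12a, Myl12b, Myl10 and Mybpc1, which the array lists under older names, are no members. This gave 65 of 27827 gene names on the array, measured by 121 of its 41174 probes. The family was picked with the result of the same comparison known, so its values and calls are given as a description.

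In striated muscle, myosin thick filaments pull on actin thin filaments, and calcium opens the thin filament through the troponin complex and tropomyosin. Most parts exist as several isoforms coded by separate genes: some are made in skeletal or heart muscle, whereas others form the contractile cytoskeleton of smooth muscle and of nearly every other cell, lymphocytes included. Muscle isoforms are normally switched on by the myogenic factors Myod1, Myf5, Myog and Myf6 in skeletal muscle, or by factors such as Gata4 and Nkx2-5 in the heart.

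All samples are Ebf1 -/- by their titles (Ebf -/- in the genotype label). They lack Ebf1, a transcription factor without which progenitors do not commit to the B lineage. Cultures stood on a layer of OP9 stromal cells, and Flt3-ligand, stem cell factor and interleukin 7 were each added at 10 ng/ml. The control group received the retrovirus pMYs-IRES-EGFP, which codes for the fluorescent protein alone, and the Ebf1 group received pMYs-Ebf1beta-IRES-EGFP. Cells were cultured for 24 h after infection and sorted for EGFP, and total RNA of each of 3 samples per group was hybridised to its own 1-colour Agilent array. Expression from the retrovirus is not the expression of the endogenous locus. No source says that the samples came from separate cultures, so the p-values measure the spread between these samples, which may be technical. In bulk RNA, fewer cells of a type and less RNA per cell cannot be told apart.

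The 75th percentile of the processed signal lay between 240 and 366 intensity units in control samples and between 316 and 364 in Ebf1 samples. Signal was well above background for 46.3% to 50.2% of probes on control arrays and for 50.4% to 59.8% on Ebf1 arrays. The arrays lay on 3 slides, of which only slide 1 held both groups (control 2 and Ebf1 1), so most of the slide difference cannot be told apart from the group. The reference-transcript probe of Ebf1 itself was not called (log2 change -0.15 ± 0.21 SE, adjusted p = 0.646), and whether it lies within the retroviral insert or the deleted part is not given in the sources used here, so it did not check the labels. Among 10 fixed markers of early lymphoid progenitors, 9 had a probe well above background on all arrays. They moved both ways: Ly6d rose by 2.62 on the log2 scale, whereas Kit and Il7r fell by 1.82 and 1.69. Of the 16 tested probes of this list 5 were higher and 5 lower, beside 11.5% and 10.2% of all tested probes. The summed level of the list, in multiples of the array's 75th percentile, was 103 to 131 on control arrays and 250 to 282 on Ebf1 arrays.

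A level below is the log2 of a probe's processed signal relative to the 75th percentile of its array, and a change is Ebf1 minus control on that scale, with its standard error (SE). Testing required signal well above background on all 3 arrays of at least 1 group, and a probe was called when limma's adjusted p, over all tested probes of the array, was under 0.05. Of the 121 probes, 46 (34 genes) were tested and 75 were not. Of the untested probes, 45 were above background on no array, 27 on 1 or 2 arrays and 3 on 3 or 4 arrays.

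Signal of 24 family probes from 18 genes was higher in Ebf1 cells, 1 probe (Actn2) was lower, and 21 were not called. Among all 20455 tested probes, 11.5% were called higher and 10.2% lower, and of all genes with a tested probe 13.8% had at least 1 probe higher. The control and Ebf1 arrays did not overlap, with Ebf1 higher, for 26 of the 46 family probes and for 18.8% of all tested probes. Because the family was chosen on this contrast, nothing is read from these shares. Of the 24 higher probes, 11 (9 genes) were dim on every control array and were tested only through their Ebf1 signal, which favours a rise. Of all 561 tested probes dim on every control array, 451 were called higher. The other 13 (9 genes) were among 34 family probes bright enough to pass on all 6 arrays. Of all 18487 probes that did so, 1610 were called higher. The count of higher probes was 21 to 25 when any single array was left out, and the count of lower probes was 2 without control array 2 (Casq2 joined) or without Ebf1 array 1 (Tpm4 joined).

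Muscle and non-muscle isoforms were set side by side. Of 29 tested probes of striated muscle genes, 21 (16 genes) were higher and 1 was lower, with a median log2 change of 2.05. Both Tpm2 probes, called higher, are counted here, although Tpm2 is also found in smooth muscle and fibroblasts. Among 11 tested probes of non-muscle or smooth muscle genes, 3 (2 genes, Actn1 and Mylk) were higher and none lower, with a median of 0.38. The 6 tested probes of Tpm1, Tpm3 and Tpm4, which serve several tissues, had no call and a median of -0.34. The median over all tested probes was -0.06. With the normexp background correction these medians were 0.95 (striated), 0.21 (non-muscle or smooth muscle), -0.22 (several tissues) and -0.04 (all tested probes). On probes above background on all 6 arrays, which leaves out those tested only through their Ebf1 signal, the medians were 0.89 over 17 striated probes, 0.38 over 11 non-muscle or smooth muscle probes and -0.10 over all 18487 such probes. The difference between the classes was not tested.

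**Figure D1:**
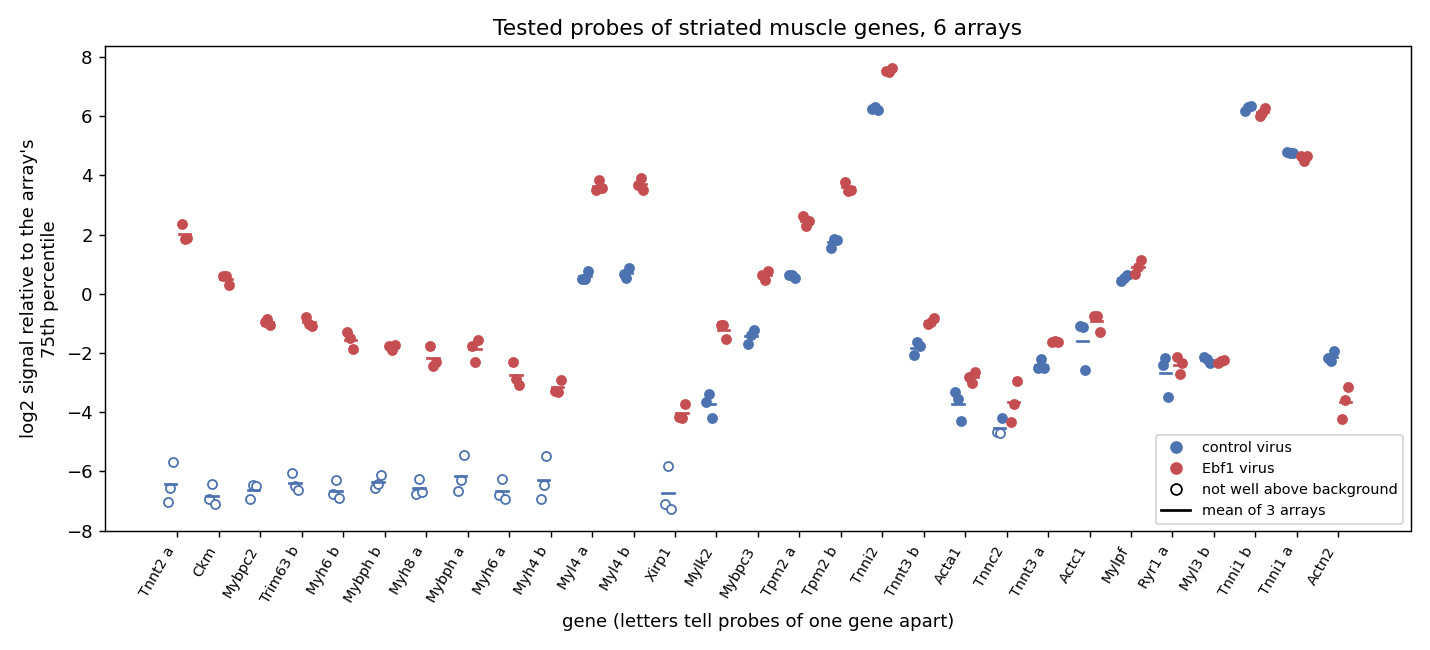
Level of each tested probe of a striated muscle gene on each of the 6 arrays (vertical axis, log2 signal relative to the array's 75th percentile), ordered by the change; blue points are control arrays, red points Ebf1 arrays, open points are spots not well above background and bars are means of 3 arrays. Control points of the first 10 probes and of Xirp1 are open and lie between -7.28 and -5.46, whereas Actn2, at the far right, is the only probe called lower.

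The regulatory proteins of the thin filament held the steepest rise of the family. Tnnt2 codes for cardiac troponin T, which anchors the troponin complex to tropomyosin. Its bright probe read -7.02, -6.55 and -5.67 on control arrays 1 to 3 and 2.36, 1.85 and 1.89 on Ebf1 arrays 1 to 3. None of the control spots was well above background, and all 3 Ebf1 spots were, at 1170 to 1870 intensity units against 2.6 to 5.1. The rise was at least 106-fold (limma adjusted p = 3.97e-06). Here a bound divides the mean of the bright group by the mean of the lowest signal that passed as above background on each array of the dim group, or the probe's own signal where that was higher. Such a bound holds for the processed signal only, since the normexp correction described below gave smaller rises. The probe is shown because it carried that rise. Its 60 bases lie at chr1:137747976-137748288 (mm9, plus strand) and spread over 313 bases of the genome, so it crosses at least 1 exon junction and reads spliced RNA.

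Tnnt2 probe: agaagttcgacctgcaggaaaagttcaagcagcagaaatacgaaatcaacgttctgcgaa

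Fast skeletal troponin I, coded by Tnni2, is the subunit that holds the thin filament off. Its probe was bright without Ebf1, reading 6.23, 6.32 and 6.20 on the control arrays and 7.51, 7.48 and 7.62 on the Ebf1 arrays. All 3 Ebf1 arrays lay above all 3 control arrays, a change of 1.29 ± 0.13 (2.45-fold; adjusted p = 0.000415). Slow skeletal troponin I, coded by Tnni1, was also above background on all 6 arrays on both of its probes, and neither was called (-0.18 ± 0.13 and -0.15 ± 0.14). The first read 4.75 to 4.78 on control arrays and 4.47 to 4.66 on Ebf1 arrays. Tnnt3, fast skeletal troponin T, rose on both probes, by 0.89 ± 0.16 and 0.78 ± 0.14, with no overlap between groups. Both Tnnt3 calls were lost with slide as a fixed block, where the changes were 0.61 and 0.58 (adjusted p = 0.215 and 0.194), and with median scaling.

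Troponin C, the calcium sensor of the complex, had no call. The fast isoform gene Tnnc2 read -4.67, -4.71 and -4.20 on control arrays, only 1 of them above background, and -4.33, -3.73 and -2.95 on Ebf1 arrays (0.86 ± 0.34, adjusted p = 0.112). The groups overlapped. Probes of Tnnc1, Tnni3 and Tnnt1, the slow or cardiac C, I and slow T subunits, were above background on no more than 2 arrays of either group and were not tested.

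Tropomyosin lies along actin and is moved by the troponin complex. Tpm2 codes for the beta form, found in striated muscle and also in smooth muscle and fibroblasts. One of its probes read 0.65, 0.62 and 0.54 on control arrays and 2.62, 2.29 and 2.44 on Ebf1 arrays, a change of 1.85 ± 0.15 (adjusted p = 0.00011). Its other probe gave 1.84 ± 0.16, so the probes differed by less than 1 SE. The remaining tropomyosins went the other way in sign without a call: Tpm4 by -0.53 ± 0.16 (adjusted p = 0.055), Tpm3 by -0.48 ± 0.16 and -0.14 ± 0.17, and Tpm1 by -0.44 to -0.22 over 3 probes.

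Sarcomeric actins showed small changes. Acta1, skeletal alpha-actin, read -3.31, -3.54 and -4.30 on control arrays and -2.80, -3.02 and -2.65 on Ebf1 arrays, a change of 0.89 ± 0.26. The groups did not overlap, but the adjusted p of 0.049 was the closest to the threshold among the called probes, and the call was lost under 13 of the alternatives, among them leaving out any single array other than control 1. Without control array 3 the change was 0.60. Actc1, cardiac alpha-actin, gave 0.67 ± 0.40 with overlapping groups and no call (adjusted p = 0.27).

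Sarcomeric myosin heavy chains, the motors of the thick filament, rose from below background on 4 probes of 3 genes. Myh6, the fast cardiac chain, gave at least 8.86-fold and 3.87-fold on its 2 probes. The better of them read -6.76, -6.29 and -6.90 on control arrays and -1.30, -1.48 and -1.88 on Ebf1 arrays (adjusted p = 6.31e-06). The annotation of the array lists transcripts of Myh6 and of its neighbour Myh7, the slow chain, for both Myh6 probes, so the source of that signal is uncertain between these near-identical genes. The 2 probes of Myh7 itself were above background on 1 Ebf1 array each and were not tested. Myh8, the perinatal skeletal chain, rose at least 5.83-fold (adjusted p = 1.34e-05), and Myh4, the fast IIb chain, at least 2.90-fold (adjusted p = 0.000653). On no probe did a control array overlap an Ebf1 array. Of the other sarcomeric chains, the 4 probes of Myh2, the 3 of Myh1, the 2 of Myh3 and the 1 of Myh13 were tested on none.

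Myosin light chains brace the lever arm of the heavy chain. Myl4, the atrial and embryonic essential chain, was clearly above background in both groups, and read 0.49, 0.49 and 0.78 on control arrays and 3.50, 3.83 and 3.58 on Ebf1 arrays. The change was 3.05 ± 0.16 (8.26-fold; adjusted p = 1.57e-05) and, on its other probe, 3.01 ± 0.17 (8.05-fold). The groups stood apart by more than 2 log2 units on both. The 2 probes are no independent pair, because they share 47 of their 60 bases. They are shown with the shared stretch in capitals, in order along the chromosome (mm9, plus strand). The first printed lies at chr11:104445422-104445792 and gave the change of 3.01. The second lies at chr11:104445435-104445805 and gave the change of 3.05.

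Myl4 first probe: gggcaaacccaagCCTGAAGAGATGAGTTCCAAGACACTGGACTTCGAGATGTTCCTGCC

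Myl4 second probe: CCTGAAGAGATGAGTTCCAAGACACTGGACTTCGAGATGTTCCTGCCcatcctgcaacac

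The other sarcomeric light chains had no call. Mylpf, the fast regulatory chain, read 0.43 to 0.64 on control arrays and 0.66 to 1.15 on Ebf1 arrays (0.37 ± 0.17, adjusted p = 0.16). Myl3, the ventricular and slow essential chain, was measured by 1 of its 2 probes, with no call (-0.05 ± 0.13): it read -2.15, -2.21 and -2.33 on control arrays against -2.34, -2.26 and -2.25 on Ebf1 arrays. The second Myl3 probe was above background on 1 Ebf1 array. Probes of Myl1, Myl2 and Myl7 were not tested.

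Myosin-binding proteins C and H form stripes on the thick filament. Mybpc2, the fast skeletal form, read -6.94, -6.46 and -6.49 on control arrays, all below the background limit, and -0.97, -0.85 and -1.07 on Ebf1 arrays. It rose at least 13.3-fold (adjusted p = 1.32e-06). Mybpc3, the cardiac form, was above background throughout, with -1.68, -1.39 and -1.22 against 0.63, 0.46 and 0.78, and rose by 2.05 ± 0.17 (4.15-fold; adjusted p = 0.000156). Mybph, a smaller relative found in fast muscle, rose at least 7.50-fold and 7.11-fold on its 2 probes. All 4 probes separated the groups without overlap. The probe of Mybphl, a heart relative, was above background on 2 Ebf1 arrays and on no control array, and was not tested.

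Among enzymes of striated muscle, Ckm had the largest bound. It codes for the muscle creatine kinase, which buffers ATP at the thick filament. Its probe read -6.94, -6.44 and -7.09 on control arrays and 0.59, 0.61 and 0.29 on Ebf1 arrays, or 1.9 to 3.0 against 387 to 547 intensity units. The rise was at least 36.7-fold (adjusted p = 1.06e-06). Trim63, a ubiquitin ligase that marks sarcomere proteins for degradation, rose at least 13.4-fold (adjusted p = 2.61e-06). Mylk2, the skeletal myosin light chain kinase, read -3.65, -3.38 and -4.18 on control arrays and -1.06, -1.05 and -1.54 on Ebf1 arrays, a change of 2.52 ± 0.24 (5.74-fold; adjusted p = 0.0003). In each of these 3 genes all Ebf1 arrays lay above all control arrays.

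At the Z-disc, which anchors the thin filaments, the muscle alpha-actinin moved down. Actn2 read -2.16, -2.27 and -1.93 on control arrays and -4.23, -3.60 and -3.13 on Ebf1 arrays, and it fell by 1.53 ± 0.27 on the log2 scale (2.90-fold lower; adjusted p = 0.0066). The groups did not overlap, and the call held under every alternative run. Xirp1, a Xin-repeat protein of muscle adhesion sites, rose at least 1.60-fold (adjusted p = 0.00205), the smallest bound among the called probes. Its call was lost with the normexp background correction (log2 change 0.29, adjusted p = 0.308). Probes of Actn3, Ldb3, Myoz1, Myoz2, Myoz3, Xirp2 and Des were not tested.

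The giant and calcium-store proteins were mostly undetected. Titin, coded by Ttn, spans the sarcomere from Z-disc to M-band; 7 of its 9 probes were above background on no array, and the other 2 on 1 Ebf1 array each. All 3 probes of the cardiac ryanodine receptor Ryr2 were above background on no array. One of 3 probes of Ryr1, the skeletal calcium release channel, was measured, with overlapping groups and no call (0.29 ± 0.34). That probe is listed for a cDNA, and the 2 probes of the Ryr1 reference transcript were above background on no array. Casq2, the cardiac calcium store protein, was not tested because 2 of 3 control arrays and no Ebf1 array passed as above background. It is named after its values were seen: it read -3.99, -4.28 and -4.05 on control arrays and -7.67, -7.18 and -6.23 on Ebf1 arrays.

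The non-muscle isoforms gave the contrast. Myl6, the essential light chain of non-muscle and smooth muscle myosin, had changes of 0.07 ± 0.18 and -0.06 ± 0.15 on its 2 probes. Myh9, the main non-muscle heavy chain of blood cells, gave 0.05 ± 0.24 and -0.04 ± 0.25. On every one of these 4 probes the groups overlapped and all 6 arrays were above background. Actn4, a non-muscle alpha-actinin, changed by 0.34 ± 0.18, Myl6b by 0.38 ± 0.14, Myh14 by 0.47 ± 0.26 and Myl9, a regulatory light chain of smooth muscle, by 0.54 ± 0.22, none of them called. The measured Myl6b probe, whose change is also the class median, is listed for a cDNA on the plus strand. The reference-transcript probe of Myl6b is listed on the minus strand, passed on 1 Ebf1 array and was not tested. Whether the measured value reads Myl6b is therefore uncertain. Median scaling shifts every change down by one step, with the median of all tested probes going from -0.06 to -0.37, and turns the uncalled positive values of Myl6, Myh9 and Ryr1 negative.

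The exceptions were Mylk and Actn1. Mylk, the kinase that activates smooth and non-muscle myosin, read -1.45, -1.47 and -1.12 on control arrays and -0.65, -0.11 and -0.21 on Ebf1 arrays on one probe, a change of 1.02 ± 0.19 (adjusted p = 0.00861). Its other measured probe gave 1.12 ± 0.28 (adjusted p = 0.026). Actn1, the alpha-actinin of adhesion sites, read -1.26, -1.44 and -1.40 on control arrays and -1.04, -0.26 and -0.39 on Ebf1 arrays (0.80 ± 0.22, adjusted p = 0.037). In both genes Ebf1 array 1 lay closest to the controls, and it is the Ebf1 array that shared a slide with a control. Within that slide the Actn1 difference was 0.40, and those of Mylk were 0.82 and 0.96. With slide as a fixed block all 3 calls were lost (adjusted p = 0.365 for Actn1, 0.121 and 0.112 for Mylk), and they were also lost with median scaling. The Actn1 call was lost when any single array other than Ebf1 1 was left out (adjusted p = 0.0724 to 0.116), and the weaker Mylk call when control 1, control 2, Ebf1 2 or Ebf1 3 was.

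**Figure D2:**
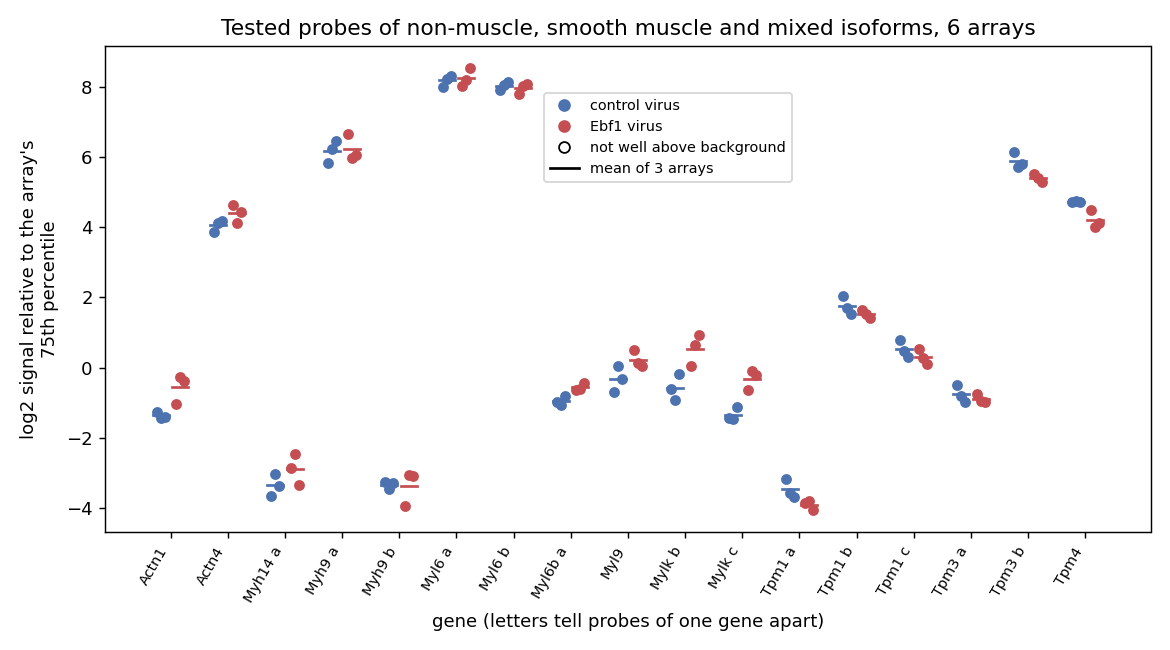
Level of each tested probe of a non-muscle or smooth muscle gene and of Tpm1, Tpm3 and Tpm4 on each of the 6 arrays (vertical axis, log2 signal relative to the array's 75th percentile); blue points are control arrays, red points Ebf1 arrays and bars are means of 3 arrays. Every point is filled, since all were above background, and only Actn1 and the 2 Mylk probes were called.

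Stromal cells generally express Actn1, Mylk and Tpm2, and markers of the OP9 feeder are given beside them. The cells had been sorted for EGFP, a step meant to remove uninfected feeder cells, and how many stayed was not measured here. Of 22 stromal marker genes 16 were tested, of which 4 (Col1a1, Fstl1, Fn1 and Col5a1) were higher and none lower, beside 13.8% of all tested genes with a higher probe. The 23 tested probes of these genes had a median change of 0.59, beside -0.06 over all tested probes. The groups did not overlap, with Ebf1 higher, on 12 of them, beside 18.8% of all tested probes. The summed stromal level, in multiples of the array's 75th percentile, was 42.9 to 45.4 on control arrays and 50.5 to 62.0 on Ebf1 arrays. Decorin (Dcn), lumican (Lum) and periostin (Postn) were above background on no array. The part of stromal RNA in the Actn1, Mylk and Tpm2 values was not tested.

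Markers of committed muscle were largely dark. Of 10 such genes, Myod1, Myf5, Myf6, Gata4, Nkx2-5 and Mb were above background on no array. Myog, a late myogenic factor, passed on 1 control array and 2 Ebf1 arrays, with signals of 11.2 to 14.3 and 8.0 to 11.1 intensity units. Only Ckm and Acta1 of this list were tested, and they had been called as family members. The summed level of the list was 0.214 to 0.243 on control arrays and 1.52 to 1.77 on Ebf1 arrays, of which Ckm alone made up 1.22 to 1.52. Without Ckm the other 9 genes summed to 0.207 to 0.232 and 0.241 to 0.300.

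Probes of one gene did not always read alike. Of 33 genes with more than 1 probe, 5 (Mybph, Myh6, Myl4, Tnnt3 and Tpm2) had a rise called on every probe, and 5 (Myh4, Myh8, Mylk, Tnnt2 and Trim63) had called probes beside untested ones. In 9 genes no probe was called although some were tested, and in 14 no probe was tested. The dim Tnnt2 probe, at chr1:137735641-137735700, is listed for a RIKEN cDNA and not for a reference transcript, and so are the dim Mylk and Trim63 probes. That Trim63 probe read -7.06, -6.62 and -7.17 on control arrays and -6.64, -4.11 and -4.26 on Ebf1 arrays, with the last 2 above background.

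Myh8 shows the split most clearly, with 1 bright probe and 3 that were above background on no array. The bright probe lies furthest along the gene (chr11:67121925-67121984), and the dim one printed here belongs to the same reference transcript further upstream (chr11:67098388-67098447; mm9, plus strand). The bright Myh8 probe has at most 19 bases in a row in common with a probe of any other myosin heavy chain gene, Myh1, whose own probe was not tested. In Myh4 the order was the reverse: the probe at chr11:67072804-67072863 was called, and the one further along, at chr11:67073834-67073893, was above background on no array.

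Myh8 bright probe: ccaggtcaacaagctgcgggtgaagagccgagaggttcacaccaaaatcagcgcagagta

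Myh8 dim probe: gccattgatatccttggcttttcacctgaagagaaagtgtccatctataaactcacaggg

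In Myl3 the split bore on whether the gene was measured at all. The probe above background on all 6 arrays lies near the start of the gene (chr9:110666325-110666384), and the dim one crosses an exon junction further along (chr9:110671632-110671926; mm9, plus strand). The measured probe is shown because it gave the only tested signal of Myl3.

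Myl3 measured probe: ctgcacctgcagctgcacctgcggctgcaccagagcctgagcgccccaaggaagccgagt

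Myl3 dim probe: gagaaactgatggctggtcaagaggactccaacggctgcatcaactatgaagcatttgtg

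**Figure D3:**
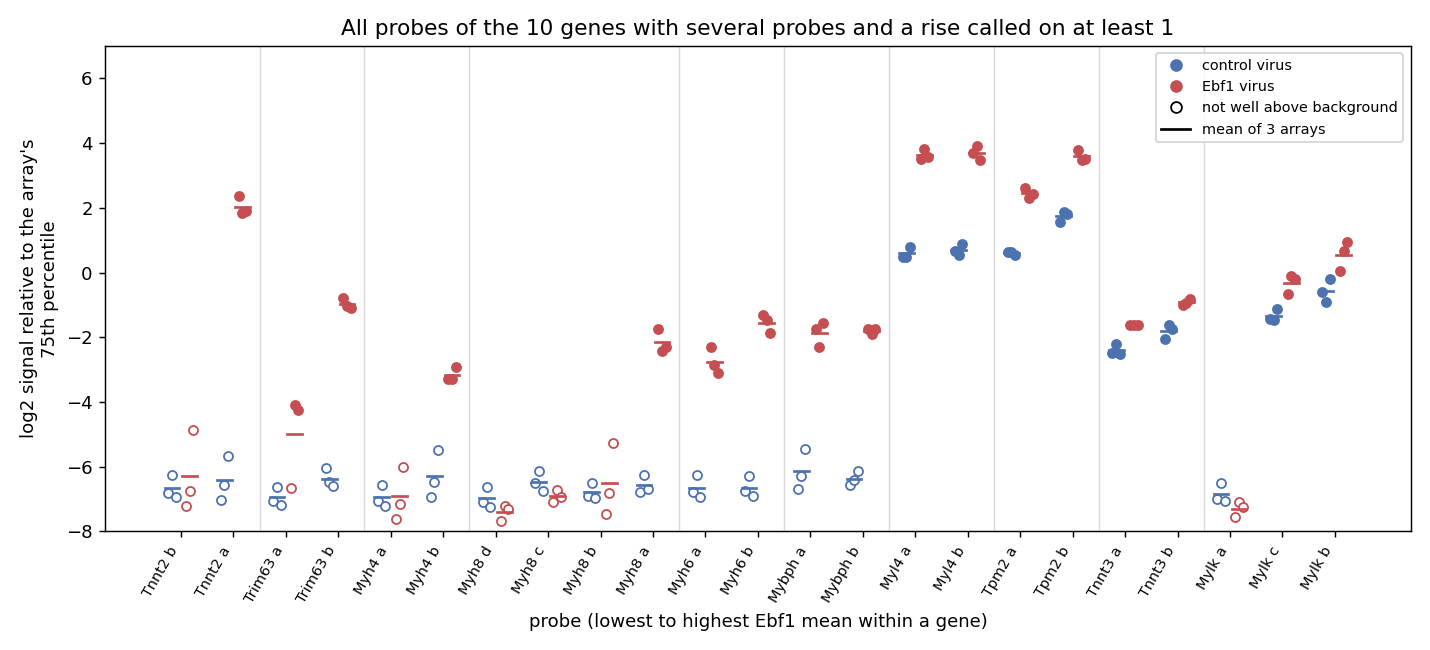
Level of every probe, tested or not, of the 10 genes that have several probes and a rise called on at least 1 (vertical axis, log2 signal relative to the array's 75th percentile); blue points are control arrays, red points Ebf1 arrays, open points are spots not well above background and bars are means of 3 arrays. Myh8 has 3 probes open on all arrays beside 1 with filled Ebf1 points, whereas the probe pairs of Myl4 and Tpm2 rise together.

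The size of the rise from below background depended on the background correction. On every family probe given as at least a fold, the normexp change was smaller than the stated bound, so the bounds are no minimum across corrections. With normexp the Tnnt2 change was 4.50 in place of 8.45, that of Ckm 2.88 in place of 7.32 and that of Trim63 1.81 in place of 5.41. Among weak probes above background on all 6 arrays, the Mylk2 change was 1.15 in place of 2.52 and that of Actn2 -0.66 in place of -1.53. The Myl4 change, measured well above background in both groups, was 2.95 in place of 3.05. Of the 24 higher probes 22 were called with normexp, all but Acta1 and Xirp1. With slide as a fixed block, which reduces the comparison to slide 1, 18 were called. All 24 differences within that slide were positive. They had to be, because on each of these probes every Ebf1 array lay above every control array.

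**Figure D4:**
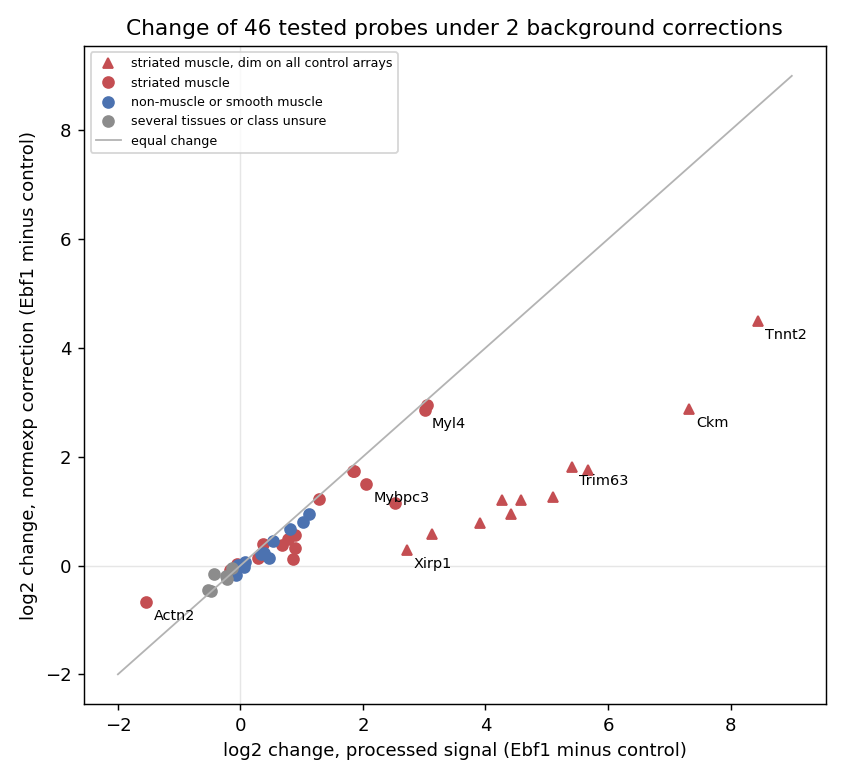
Log2 change of the 46 tested probes with the processed signal (horizontal axis) and with the normexp correction (vertical axis), both Ebf1 minus control; triangles are probes dim on all control arrays and the grey line marks equal change. The triangles lie below the line, from Xirp1 at 2.71 and 0.29 to Tnnt2 at 8.45 and 4.50, and the Myl4 probes lie close to it.

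The adjusted p of called and uncalled probes met at the threshold without a gap. Just inside lay Mylk (0.026, the weaker probe), Actn1 (0.037) and Acta1 (0.049). Just outside lay Tpm4 (0.055), Tpm3 (0.074) and Myl6b (0.101).

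Genes outside the family were followed through 7 partner lists with 126 genes. Most are lists of muscle genes, but 1 is of the non-muscle actin cytoskeleton, with 35 of the tested probes. Of 115 tested probes, 17 (14 genes) were higher and 7 lower, with a median change of 0.11, beside 11.5% higher and 10.2% lower among all tested probes. Nothing is read from the counts of these lists. The lower count fell to 2 to 5 when any single array was left out, and the higher count was 14 to 21. The voltage sensor of the skeletal T-tubule, Cacna1s, read -5.41, -6.10 and -5.98 on control arrays and 1.62, 0.91 and 0.92 on Ebf1 arrays. No control spot was above background, and the rise was at least 57.8-fold, with a log2 change of 3.37 under normexp.

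Calcium handling had 5 higher probes and 1 lower among 20 tested. Besides Cacna1s these were the inositol trisphosphate receptors Itpr3 (1.72 ± 0.19) and Itpr2 (1.26 ± 0.21 and 1.31 ± 0.23) and the calcium pump Atp2a3 (0.72 ± 0.18), all of which occur in lymphocytes. Another calcium pump, Atp2a2, fell by 0.76. Muscle regulators had 3 higher and 2 lower among 20. Mef2b and Mef2d, factors of the MEF2 family that work with myogenic factors and also act in B cells, rose by 2.70 ± 0.21 and 0.68 ± 0.13, whereas Mef2c of the same family fell by 1.61. Mkl1, a coactivator of serum response factor, rose by 0.57 ± 0.16, and Id2, an inhibitor of E-box factors, fell by 0.78, each on 1 of its probes.

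Z-disc and thin filament partners had 3 higher among 15 tested, namely both Flnc probes (0.99 ± 0.16 and 0.92 ± 0.19), a filamin of the Z-disc, and Cryab, a small heat shock protein, at least 1.08-fold. In the sarcolemma list 1 of 10 tested was higher, Utrn (0.90 ± 0.15), the widely expressed relative of dystrophin. Muscle metabolism had Ckb, the brain-type creatine kinase, higher by 0.97 ± 0.23 and Eno3, the muscle enolase, lower by a log2 change of -1.01 ± 0.14, among 7. Smooth muscle partners had 2 higher among 8, Smtn (2.33 ± 0.19), a smooth muscle filament protein, and Cnn1, at least 1.06-fold. The non-muscle actin cytoskeleton had 2 higher and 3 lower among 35, with a median of -0.25. Its higher probes were both of Vcl (1.60 ± 0.22 and 0.97 ± 0.14), which links actin to adhesion sites, and its lower ones included Tagln2 and Zyx.

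Promoters of the risen genes were read from RefSeq sequences (GRCm38.p6), from 250 bases before to 50 after the start site. Of the 18 genes with a higher probe, 14 matched, with 15 promoters. Motifs were searched on both strands. The core of the Ebf1 motif, CCCNNGGG, which is its own reverse complement, occurred in 2 of 15 promoters (Ckm and Tpm2) and in 13.7% of all 32851. The longer Ebf1 motif, the same core with T before it and A after it, occurred in 1 of 15, that of Ckm, and in 0.904% of all. The E-box CANNTG, the site class of myogenic factors and of the B cell factor Tcf3, occurred in 13 of 15 and in 72.3% of all. Over the 62 matched promoters of all family genes, risen or not, the core occurred in 12 (19.4%). The longer motif occurred in 3 of these 62 (4.84%) and the E-box in 53 (85.5%). Both promoters with a core are printed. In the Ckm promoter (chr7:19410844-19411143, plus strand) capitals mark the longer motif, 78 to 69 bases before the start site. In the Tpm2 promoter (chr4:43523505-43523804, minus strand) capitals mark 5 matches to the shorter core, of which the first 2 overlap. A match is a run of letters and not a shown binding site.

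Ckm promoter: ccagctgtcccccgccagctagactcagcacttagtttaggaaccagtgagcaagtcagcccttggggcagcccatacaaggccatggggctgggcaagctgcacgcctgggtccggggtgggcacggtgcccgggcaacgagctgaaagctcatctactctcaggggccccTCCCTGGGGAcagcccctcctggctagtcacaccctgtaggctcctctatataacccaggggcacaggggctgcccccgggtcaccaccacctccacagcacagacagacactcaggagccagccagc

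Tpm2 promoter: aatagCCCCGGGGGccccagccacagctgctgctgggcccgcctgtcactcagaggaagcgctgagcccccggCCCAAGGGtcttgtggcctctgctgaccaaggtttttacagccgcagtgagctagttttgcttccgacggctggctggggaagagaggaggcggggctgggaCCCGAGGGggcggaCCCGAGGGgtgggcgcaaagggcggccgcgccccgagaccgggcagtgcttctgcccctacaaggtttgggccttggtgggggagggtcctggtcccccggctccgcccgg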

How the data were processed

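Total RNA of 3 control and 3 Ebf1 samples was measured on 1-colour Agilent arrays. The authors' deposited files hold background-subtracted intensity per spot, written by Feature Extraction 10.5.1.1 per the file headers. The deposited table of the whole series held the same values. From these, log2 intensity minus each array's 75th percentile was computed over 43379 non-control spots; outlier spots (65 to 116 an array) were left out and spots of a probe averaged. No non-control spot was saturated. Of 41174 probes, 20455 with signal well above background throughout a group were fitted with limma 3.58.1 (lmFit, eBayes; R 4.3.3, the data.table package at 1.17.8), two-sided, with Benjamini-Hochberg adjustment at 0.05, after a test on simulated data. Probes were named by the array's gene names, and 97 of the 121 matched a RefSeq accession. Probe positions are those of the files (mm9). Whether a probe lies in a coding or untranslated part of its exons was not analysed here. The number of arrays limits the precision.

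Members, isoform classes, partner lists and markers were chosen with earlier results of these data known. Genes named with values are those with a called probe, the tested non-muscle or smooth muscle members, the 3 tested probes on either side of the threshold and, of each partner list, up to 3 called genes with the smallest p; Casq2, Tnni1, Tnnc2, Mylpf, Myl3, Ryr1, Actc1, Tpm1 and further partners were added after their values were seen. One called partner gene is not reported here. Alternatives were normexp (offset 50), quantile and median scaling, no filter or all 6 arrays, the deposited table, replicate and slide blocks, trend with robust eBayes, and leaving out each array.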

Additional observations from a re-analysis of the deposited data

How the results depend on the processing

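Of 25 called family probes, 18 kept the call under every alternative in which they were tested, and 7 lost it at least once: those of Acta1, Actn1, Xirp1, Mylk (2 probes) and Tnnt3 (2 probes). No called probe changed direction. Asking for signal on all 6 arrays left 13 higher probes, since it drops the dim ones. The lower family count was 2 without a filter, 3 with the trend and robust options, and 1 to 2 with an array left out; the higher one ran from 21 to 25. Among all probes, the higher count of 2350 became 1256 with median scaling, 1341 without a filter and 1270 with slide as a fixed block (1594 to 2124 with an array left out). The lower count of 2085 became 655 without a filter and 898 with the slide block (1016 to 1687 with an array left out). Median scaling moved the median of all tested probes from -0.06 to -0.37 and the higher share of calls from 53.0% to 32.2%, and left 18 higher family probes. Partner lists had 10 higher and 12 lower probes with median scaling, 10 and 4 with the slide block, and 14 to 21 and 2 to 5 with an array left out. Replicate numbers did not pair the samples (correlations of same-numbered deviations -0.17, -0.25 and 0.10). With them as a block the family had 22 higher and 1 lower, all probes 1233 lower and partners 2 lower. The cause of these shifts was not tested. In simulated data of this design, 52% of 50 probes changed by 1 log2 unit and 94% of 50 changed by 4 were recovered. Small changes can thus be missed. Far fewer of the 20447 simulated probes were changed than were called in the real data. Adjustment is stricter in such a simulation, so these rates do not carry over to the real data.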

Other observations

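Genes next to the risen family members on the chromosome were looked up in RefSeq's gene order (GRCm38.p6, names only) after the values of the family were seen. Of 30 genes directly on either side, members left out, 24 were tested, 7 had a higher probe (29.2%, against 13.8% of all tested genes) and none a lower one. Mybpc2 lies beside Spib, a B cell transcription factor, which rose by 4.95 ± 0.19, and Mylk2 lies beside Foxs1, which rose by 3.83 ± 0.19. Ckm lies beside Klc3, a kinesin light chain, which rose by 4.31 ± 0.24. Tnnt2 lies beside Pkp1, a desmosome protein, which rose at least 14.9-fold. Tnni2 lies between Syt8, which rose at least 4.05-fold, and the leukocyte gene Lsp1, which rose by 1.53 ± 0.16 and also adjoins Tnnt3. Acta1 lies beside Ccsap, which also rose (limma adjusted p = 0.00284). The neighbours of Myl4 (Cdc27, Itgb3) and of Mybpc3 (Spi1, Madd) had no call, nor had Tnni1, which lies 2 genes from Tnnt2.

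Of 5 probes whose genes the array lists under older names, 4 were tested. Myl10, a myosin light chain of precursor lymphocytes, read 5.14, 5.15 and 5.48 on control arrays and 5.72 to 6.17 on Ebf1 arrays. It rose by 0.71 ± 0.18 (limma adjusted p = 0.0277). The non-muscle regulatory light chains were not called: Myl12a gave 0.21 ± 0.17 (limma adjusted p = 0.392), and Myl12b 0.18 ± 0.14 and 0.23 ± 0.15 (limma adjusted p = 0.372 and 0.297). The Mybpc1 probe was not tested.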
